A study of Homo sapiens with 7 samples.

Results

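The genes of the condensin and SMC5/6 complexes were followed through total RNA sequencing of 2 human T-cell acute lymphoblastic leukaemia lines, PF-382 and MOLT-14. The 10 members are SMC2, SMC4, NCAPD2, NCAPD3, NCAPG, NCAPG2, NCAPH, NCAPH2, SMC5 and SMC6. They were taken by gene symbol, and each symbol matched 1 of the 60662 genes in the count files. PF-382 was represented by 3 libraries of cells in which STAG2 had been knocked out with Cas9 and guide RNA ribonucleoprotein, and by 2 wild-type libraries. MOLT-14 was represented by 1 library of cells transduced with STAG2 and 1 of cells transduced with an empty vector. The cells of all groups were grown in the same medium and received no drug. Each PF-382 library carries a code of its own, which begins with SA in knockout library 1 and both wild-type libraries and with SB in knockout libraries 2 and 3. The labels do not say whether a code marks a clone, a culture or a repeat preparation, so p-values measure only the spread between these libraries.

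Condensins are ring-shaped ATPases that compact chromosomes for mitosis. SMC2 and SMC4 form the ATPase core of both condensins. In condensin I this core binds NCAPH, the kleisin that closes the ring, and the HEAT-repeat subunits NCAPD2 and NCAPG, and in condensin II it binds NCAPH2, NCAPD3 and NCAPG2. Condensin II is nuclear throughout the cell cycle, whereas condensin I reaches chromosomes after the nuclear envelope breaks down. SMC5 and SMC6 form the core of a related complex that acts in DNA repair and replication fork stability. STAG2, the gene altered here, encodes a subunit of cohesin, another SMC complex, which holds sister chromatids together.

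Total counts were 65262329 to 93970572 in the knockout libraries, 32609485 and 33145516 in the wild-type libraries, 45013453 in MOLT-14 with STAG2 and 38678382 in MOLT-14 with empty vector. The 3 deepest libraries were thus the knockout ones. Levels are given as CPM, counts scaled to a common library size with TMM factors over all 7 libraries, unless TPM is named. STAG2 itself had 256, 180 and 195 CPM in knockout libraries, against 334 and 567 CPM in wild-type libraries, a log2 change of -1.13 (SE 0.26, edgeR adjusted p = 0.0218). In MOLT-14 it had 137 CPM with STAG2 and 1.15 CPM with empty vector. STAG2 RNA was therefore lower but present in PF-382 knockout cells, and nearly absent from MOLT-14 cells with empty vector. The 7 T-cell markers, among them CD3D, CD3E and LCK, summed to 1944 to 2232 CPM in knockout, 2176 to 2491 CPM in wild-type and 1555 to 1734 CPM in MOLT-14 libraries. The sums hide single markers that differed. Log2 changes of the 7 ran from -0.95 to 0.20 for knockout over wild type and from -4.06 to 1.07 for PF-382 over MOLT-14. For the second wild-type library over the first they ran from -1.82 to 1.46. Myeloid markers summed to 0.533 to 1.41 CPM in knockout and 10.3 to 20.2 CPM in wild-type libraries, nearly all ITGAM, against 0.737 and 0.758 CPM in MOLT-14 with STAG2 and with empty vector. Stromal and epithelial markers summed to 1.04 to 1.77 CPM in knockout, 4.31 to 7.06 CPM in wild-type and 1.09 to 1.19 CPM in MOLT-14 libraries. B-cell markers, nearly all CD79A, summed to 3.83 to 19.2 CPM in knockout, 6.96 to 37.4 CPM in wild-type and at most 41.4 CPM in MOLT-14 libraries. MS4A1, HBB, HBA1 and COL1A2 had 0 counts in every library. The part of these low marker sums in the results was not tested.

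Promoter sequence was examined because many genes used in mitosis carry a cell cycle homology region (CHR), spelled TTTGAA or TTTAAA, near their start. RefSeq windows of 300 bases on GRCh38.p14, mostly upstream of a transcription start and ending just after it, were held for 9 of the 10 members (all but NCAPH2) in 12 windows. A CHR on either strand was found in 7 of these 12 windows (58.3%), each of a different member, against 24.0% of all 35116 windows. All 7 members are condensin genes, and the windows of SMC5 and SMC6 did not contain these letters. The stretches around the matches are shown because they are what the condensin windows share, with the CHR, or its reverse complement TTCAAA, in capitals.
SMC2, chr9:104094294-104094323, plus strand: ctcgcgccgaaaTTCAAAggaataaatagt
SMC4, chr3:160399563-160399592, plus strand: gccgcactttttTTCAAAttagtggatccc
NCAPD2, chr12:6493945-6493974, plus strand: cagccgttgagaTTTGAActcggtatttgt
NCAPG, chr4:17810932-17810961, plus strand: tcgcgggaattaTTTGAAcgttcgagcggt
NCAPH, chr2:96335786-96335815, plus strand: cgacgcgcgcgaTTTAAAaccagctcagga
NCAPD3, chr11:134223953-134223982, minus strand: gcgggagcgagcTTTGAAagttgagcacgg
NCAPG2, chr7:158704755-158704784, minus strand: gcgccggcgggtgcgTTTGAAtctggtccg
The first base of the match lay between 145 bases before the start, in NCAPD2, and base 36 of the transcript, in NCAPG2. NCAPH alone had the TTTAAA form, which is its own reverse complement. A CCAAT box, the letters CCAAT on either strand, was found in the windows of NCAPD2, NCAPD3 and NCAPH and in 34.6% of all windows, and no CCAAT overlapped a CHR. An E2F site, searched on either strand as TTTGGCGC, TTTCCCGC, TTTCGCGC or TTTGCCGC, was found in the windows of NCAPD3 and SMC6 and in 3.31% of all windows. A match is a string of letters and not a measured binding site.

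Within a library the members kept much the same order of abundance. TPM divides by gene length and was used to compare members with each other, but not libraries, because the FPKM of a library, which depends on the mean length of its transcripts, summed to 1902152, 2155232 and 2240471 in knockout libraries, 2769083 and 2025205 in wild-type libraries, 1686531 in MOLT-14 with STAG2 and 1284355 in MOLT-14 with empty vector. NCAPD2, at 55.3 to 105 TPM over the 7 libraries, had the highest TPM of the members in 6 of them. SMC4, at 34.7 to 80.5 TPM, was first in knockout library 3 and second in 5 of the others. SMC5 was ninth in every library, at 5.06 to 13.6 TPM, and SMC6 lowest, at 3.44 to 6.47 TPM. SMC2, the partner of SMC4 in the same core, had 12.6 to 29.2 TPM. NCAPG2, at 8.74 to 20.6 TPM, was the lowest condensin member in 6 libraries, and NCAPH2 was lowest in the second wild-type library. The intermediate members NCAPH, NCAPG, NCAPD3 and NCAPH2 exchanged places between libraries.

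Knockout and wild-type PF-382 differed in 1 of the 10 members, NCAPH2, at an edgeR adjusted p below 0.05, whereas 30.4% of all 17442 genes tested passed. By direction the shares were 15.8% higher and 14.6% lower. At an unadjusted p below 0.05, 3 of the 10 members passed, against 44.4% of the genes tested. The median log2 change of the members was 0.03, against -0.02 for all genes tested. In these bulk libraries fewer cells that express a gene and less RNA per cell cannot be told apart.

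Neither gene of the ATPase core passed the test. SMC2 (ENSG00000136824.19, chr9:104094260-104141417, plus strand, GENCODE 29 on GRCh38) had 283, 243 and 260 CPM in knockout libraries, against 192 and 328 CPM in wild-type libraries. All 3 knockout values lay between the wild-type ones, and the log2 change was -0.02 (SE 0.23, edgeR adjusted p = 0.960). SMC4 (ENSG00000113810.16, chr3:160399274-160434962, plus strand) had 406, 337 and 385 CPM in knockout libraries, against 294 and 451 CPM in wild-type libraries. Again the knockout values fell inside the wild-type range (log2 change -0.02, SE 0.21, edgeR adjusted p = 0.961).

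Among the condensin I subunits, NCAPD2 (ENSG00000010292.13, chr12:6493356-6531955, plus strand) had 475, 436 and 426 CPM in knockout libraries, against 487 and 713 CPM in wild-type libraries. Every knockout library was lower than both wild-type ones, although the nearest pair differed by only a few CPM. The log2 change of -0.46 (SE 0.19) had an unadjusted p of 0.0450 and an edgeR adjusted p of 0.104. NCAPG (ENSG00000109805.10, chr4:17810902-17844862, plus strand) had 227, 208 and 253 CPM in knockout libraries, against 139 and 274 CPM in wild-type libraries. NCAPH (ENSG00000121152.10, chr2:96335787-96373845, plus strand) had 144, 137 and 146 CPM in knockout libraries, against 109 and 163 CPM in wild-type libraries. For both genes the knockout libraries lay between the wild-type ones, with log2 changes of 0.12 (SE 0.28, edgeR adjusted p = 0.758) and 0.04 (SE 0.18, edgeR adjusted p = 0.892).

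The condensin II subunits included the one member that changed. NCAPH2 (ENSG00000025770.19, chr22:50508216-50523472, plus strand) had 113, 117 and 121 CPM in knockout libraries, against 80.8 and 61.6 CPM in wild-type libraries. The groups did not overlap, with means of 117 ± 4.15 CPM in knockout (SD, n = 3) and 71.2 ± 13.6 CPM in wild-type libraries (SD, n = 2). NCAPH2 rose 1.61-fold, a log2 change of 0.69 (SE 0.14, edgeR adjusted p = 0.0156). With any 1 library left out the log2 change stayed between 0.53 and 0.91, but the edgeR adjusted p was 0.0527, 0.0613 and 0.0686 without knockout library 1, 2 and 3, in that order. With the letters of the library code as a term, an alternative chosen after seeing the data that sets knockout library 1 alone against the wild-type libraries, it was 0.127 (log2 change 0.65, SE 0.21), and 2.51% of all genes passed. NCAPD3 (ENSG00000151503.12, chr11:134150119-134225454, minus strand) had 267, 239 and 232 CPM in knockout libraries, against 191 and 198 CPM in wild-type libraries. Its groups did not overlap either, with the knockout libraries higher, and its log2 change of 0.31 (SE 0.12) had an unadjusted p of 0.0425 and an edgeR adjusted p of 0.101. NCAPG2 (ENSG00000146918.19, chr7:158631311-158704829, minus strand) had 122, 113 and 114 CPM in knockout libraries, against 86.7 and 148 CPM in wild-type libraries. Its knockout values lay between the wild-type ones (log2 change -0.04, SE 0.22, edgeR adjusted p = 0.911).

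**Figure D1:**
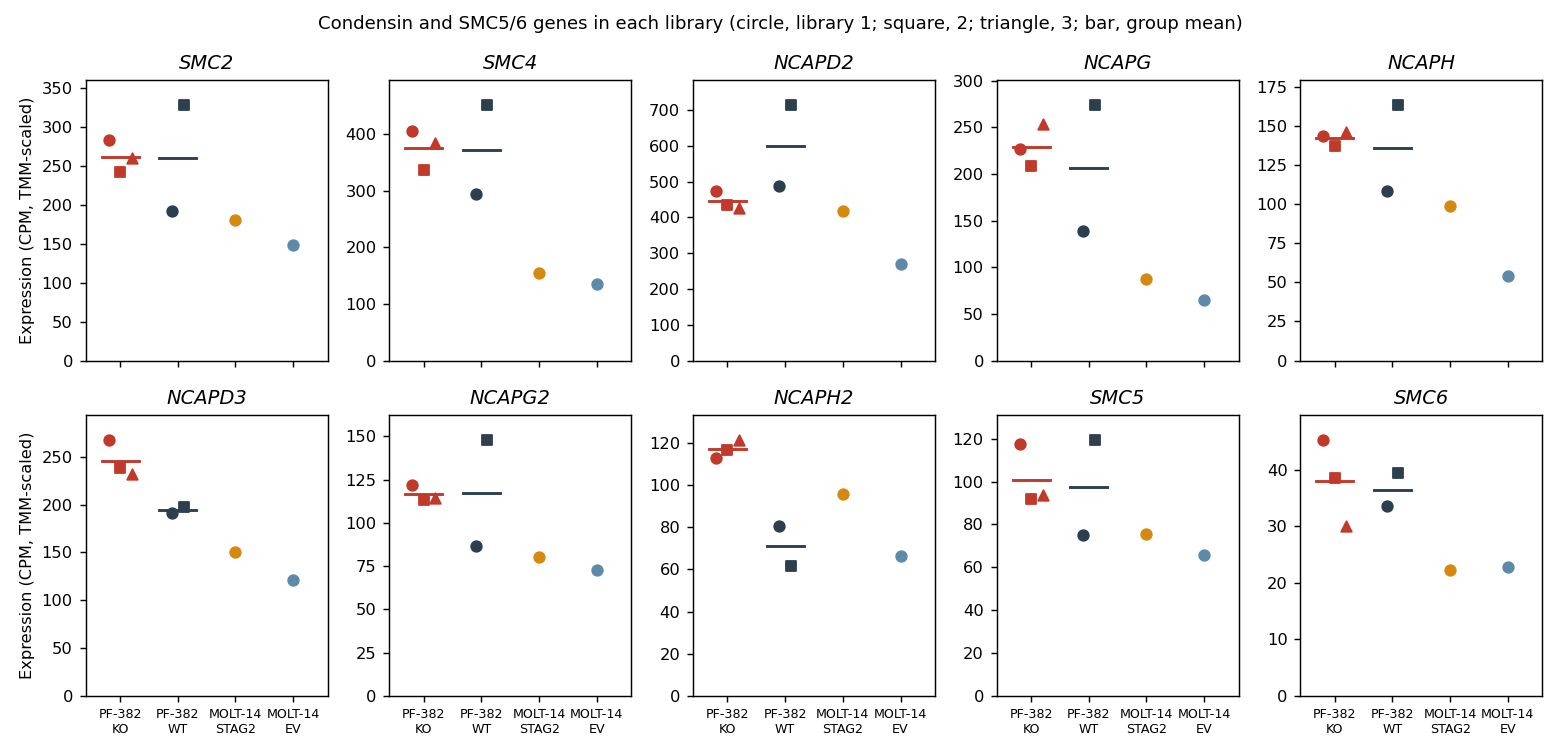
Expression of each member (y axis, TMM-scaled CPM from 0) in the 7 libraries, grouped on the x axis as PF-382 knockout (KO), PF-382 wild type (WT), MOLT-14 with STAG2 and MOLT-14 with empty vector (EV). NCAPH2, at 113 to 121 CPM in knockout libraries, stands above the wild-type libraries, whereas in 6 panels all knockout points lie between the 2 wild-type points.

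SMC5 and SMC6 did not pass either. SMC5 (ENSG00000198887.9, chr9:70258962-70354888, plus strand) had 117, 91.8 and 93.7 CPM in knockout libraries, against 75.3 and 119 CPM in wild-type libraries, so that the knockout values fell inside the wild-type range. SMC6 (ENSG00000163029.16, chr2:17663812-17800242, minus strand) had 45.2, 38.5 and 30.1 CPM in knockout libraries, against 33.6 and 39.4 CPM in wild-type libraries, and its groups overlapped. Their log2 changes were 0.03 (SE 0.22, edgeR adjusted p = 0.940) and 0.03 (SE 0.19, edgeR adjusted p = 0.922). SMC6 varied most within the knockout group, between 30.1 and 45.2 CPM, while the highest and lowest knockout library of the other members differed by 1.07-fold to 1.28-fold.

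The 2 wild-type libraries differed from each other more than most members differed between groups. In 6 members (SMC2, SMC4, NCAPG, NCAPG2, NCAPH and SMC5) all 3 knockout values lay between the wild-type ones, a pattern found in 10.7% of the genes tested. Knockout and wild-type CPM did not overlap in 3 members, against 60.0% of the genes tested (31.8% higher and 28.3% lower). The second wild-type library was above the first in 9 of the 10 members, by 1.97-fold in NCAPG, 1.71-fold in SMC2, 1.70-fold in NCAPG2, 1.58-fold in SMC5, 1.54-fold in SMC4 and just past 1.5-fold in NCAPH. These 6 members were past 1.5-fold, as were 8.30% of 10994 genes that reached 5 CPM in 1 of the 2 libraries. NCAPD2, at 1.46-fold, SMC6, at 1.17-fold, and NCAPD3, at 1.04-fold, were closer. NCAPH2 alone was lower in the second wild-type library, at 0.763 of the first, and it was not past 1.5-fold, as 12.5% of genes were in that direction. The members called in the knockout comparison depended on which wild-type library was kept. With 1 wild-type library left, that library is assumed to vary like the knockout libraries, which alone give the spread (biological coefficient of variation 0.184, against 0.242 with all 5 libraries). Without the first, when 34.7% of all genes passed, NCAPH2 (log2 change 0.91) was higher and NCAPD2 (-0.70) and NCAPG2 (-0.36) were lower at an edgeR adjusted p below 0.05. Without the second, when 34.1% of all genes passed, SMC2 (0.45), NCAPG (0.72), NCAPG2 (0.43), NCAPH (0.39) and NCAPH2 (0.53) were higher. The log2 change of NCAPG2 thus had opposite signs in these fits and that of NCAPH2 the same sign. Small RNA and mitochondrially encoded genes took 21.6% of the counts of the first wild-type library and 15.4% of the second, against 12.3% to 14.2% in knockout libraries. The part of that difference in the results was not tested. Without those genes in the fit, which left 17391 of 17442 genes, the log2 change of NCAPH2 was 0.69, as with them. So few genes were dropped that this fit cannot show what part the difference had.

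The ratio of a condensin I subunit to its condensin II counterpart does not depend on how libraries are scaled. NCAPD2 over NCAPD3 was 2.11, 2.20 and 2.23 by TPM in knockout libraries, against 2.87 and 3.73 in wild-type libraries. The groups did not overlap, and the geometric mean of the count ratio in knockout libraries was 0.598 of that in wild-type libraries. By TPM again, NCAPH over NCAPH2 was 1.29, 1.27 and 1.27 in knockout libraries, against 1.35 and 2.57 in wild-type libraries. These groups did not overlap either, but the first wild-type library was close to the knockout ones. NCAPG over NCAPG2 was 2.46, 2.43 and 2.85 in knockout libraries, against 2.09 and 2.64 in wild-type libraries, with overlap. SMC4 over SMC2 was 2.64 to 2.84 in knockout libraries, against 2.75 and 2.87 in wild-type libraries, and SMC5 over SMC6 was 1.66 to 2.09 in knockout libraries, against 1.43 and 1.97 in wild-type libraries. The ratios were not tested. In MOLT-14 the 3 subunit pairs had higher ratios with STAG2 than with empty vector, 3.28 against 2.47 for NCAPD2 over NCAPD3, 1.20 against 0.805 for NCAPH over NCAPH2 and 1.19 against 1.06 for NCAPG over NCAPG2.

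**Figure D2:**
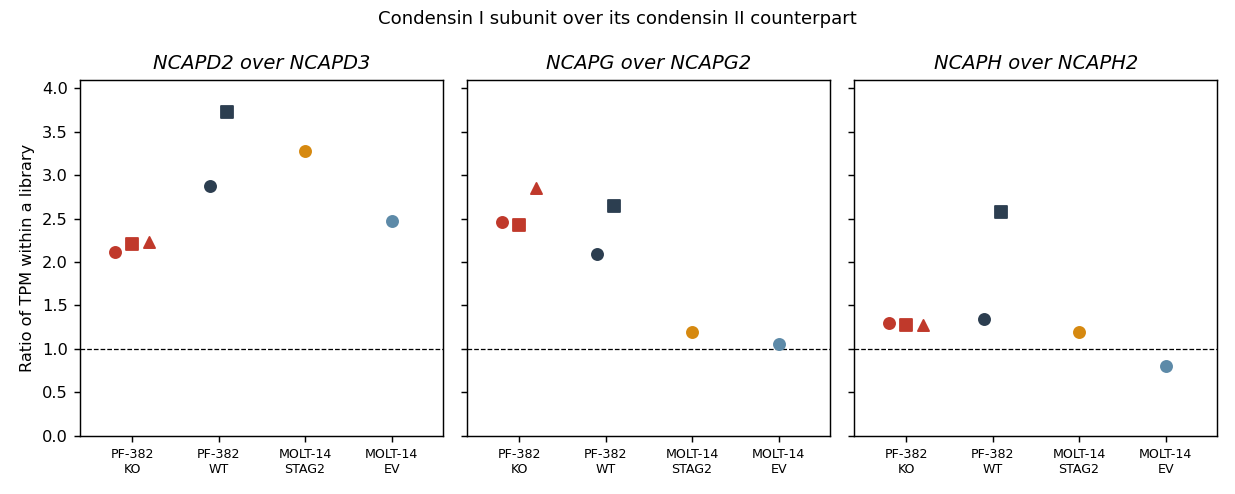
Ratio of TPM (y axis) of each condensin I subunit to its condensin II counterpart within each of the 7 libraries, by group on the x axis. The dashed line marks a ratio of 1, and symbols mark libraries 1 (circle), 2 (square) and 3 (triangle). The knockout libraries sit at 2.11 to 2.23 for NCAPD2 over NCAPD3, below wild-type libraries at 2.87 and 3.73, and within the wild-type range or near it in the other pairs.

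In MOLT-14 the comparison has 1 library on each side and no replicate check. The ratio of MOLT-14 with STAG2 to MOLT-14 with empty vector was above 1 in 9 of the 10 members with TMM scaling, against 57.6% of the 11442 genes that reached 5 CPM in one of the libraries. It was past 1.5-fold higher in 2 members, NCAPD2 and NCAPH, against 4.18% of those genes, and 1.5-fold lower in none, against 3.26%. NCAPH had 98.8 CPM with STAG2 and 54.1 CPM with empty vector, a 1.85-fold ratio (95% counting interval 1.77 to 1.94). NCAPD2 had 418 CPM with STAG2 and 269 CPM with empty vector, a 1.58-fold ratio (1.54 to 1.61). These ratios, unlike the CPM, were scaled over the 2 MOLT-14 libraries alone, and the exact binomial intervals cover counting error only. NCAPH2 followed at 1.46-fold (1.40 to 1.53), with 95.8 CPM with STAG2 and 66.2 CPM with empty vector. NCAPG, with 87.3 CPM with STAG2 and 64.6 CPM with empty vector, had a 1.37-fold ratio, so that the 3 condensin I subunits and NCAPH2 had the largest ratios.

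The remaining MOLT-14 ratios were smaller. NCAPD3 had a fold of 1.26, with 151 CPM with STAG2 and 121 CPM with empty vector. SMC2 had a fold of 1.24, with 181 CPM with STAG2 and 149 CPM with empty vector. The folds of SMC5 and SMC4 were 1.17 and 1.16, with 75.7 and 155 CPM with STAG2, against 65.7 and 135 CPM with empty vector. NCAPG2, with 80.3 CPM with STAG2 and 72.5 CPM with empty vector, had a log2 ratio of 0.17. SMC6, with 22.2 CPM with STAG2 and 22.7 CPM with empty vector, had a ratio of 0.989 whose interval (0.909 to 1.08) included 1. The median log2 ratio of the members was 0.32, against 0.05 for all genes. The scale matters here. By total counts the median of all genes moved to -0.14. NCAPH alone was then past 1.5-fold higher, against 233 of the 11442 genes, and 0 members were lower, against 835. By TPM the median moved to -0.46, and log2 ratios of the members ran from -0.51 to 0.51. With TPM 0 members were past 1.5-fold higher, against 67 of the 11442 genes, and 0 were lower, against 3436. With TMM scaling, 9 of the 10 members were above the median of all genes. Total-count scaling shifts all genes nearly alike, so it could not change their place against that median. With TPM, where it could change, 9 of the 10 members were also above the median.

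Between the lines most members were higher in PF-382 by TMM-scaled counts, but not by TPM. In a fit of all 7 libraries with the labelled STAG2 level as a covariate, 8 of the 10 members were higher in PF-382 than in MOLT-14 at an edgeR adjusted p below 0.05, against 22.4% of 20100 genes tested, and 0 were lower, against 25.2% (47.6% in both directions). The largest differences were in NCAPG, at 2.91-fold (log2 difference 1.54, SE 0.29, edgeR adjusted p = 0.00376), and in SMC4, at 2.59-fold (1.37, SE 0.22, edgeR adjusted p = 0.00160). NCAPG had 139 to 274 CPM in the 5 PF-382 libraries, against 87.3 and 64.6 CPM in MOLT-14. SMC4 had 294 to 451 CPM in PF-382 libraries, against 155 and 135 CPM in MOLT-14, so that its lowest PF-382 library was 1.89-fold above its highest MOLT-14 library. The log2 differences of the other 6 called members were 0.93 (SE 0.26) for NCAPH, 0.73 (SE 0.19) for SMC6, 0.70 (SE 0.19) for NCAPD3, 0.68 (SE 0.23) for SMC2, 0.63 (SE 0.20) for NCAPD2 and 0.62 (SE 0.21) for NCAPG2, with edgeR adjusted p of 0.0157 to 0.0414. In all 8 called members every PF-382 library was above both MOLT-14 libraries, as in 26.3% of the genes tested. NCAPH2 (0.18, SE 0.27, edgeR adjusted p = 0.613) and SMC5 (0.50, SE 0.21, edgeR adjusted p = 0.0866) did not pass, and their libraries overlapped between the lines.

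Calls between the lines rested on few MOLT-14 libraries. Without the empty-vector library 1 member, SMC4, was called, when 35.1% of all genes were in either direction, and without the library with STAG2 6 were (46.5% of all genes). Leaving out the second wild-type library left 4 members called (45.8% of all genes), leaving out the first gave 9 (49.5%), and leaving out any 1 knockout library left 5 (39.1% to 40.3%). SMC4 was called in each of these fits. With TPM the median of all genes moved to -0.46. No member was called higher, against 1014 of 20100 genes tested. NCAPH2 alone was called lower (log2 difference -0.63, limma adjusted p = 0.0257), against 11286 of those genes. Only SMC4 (0.44) and NCAPG (0.67) had a positive log2 difference. Relative to the median of all genes under that scaling, 8 of the 10 members were above it.

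**Figure D3:**
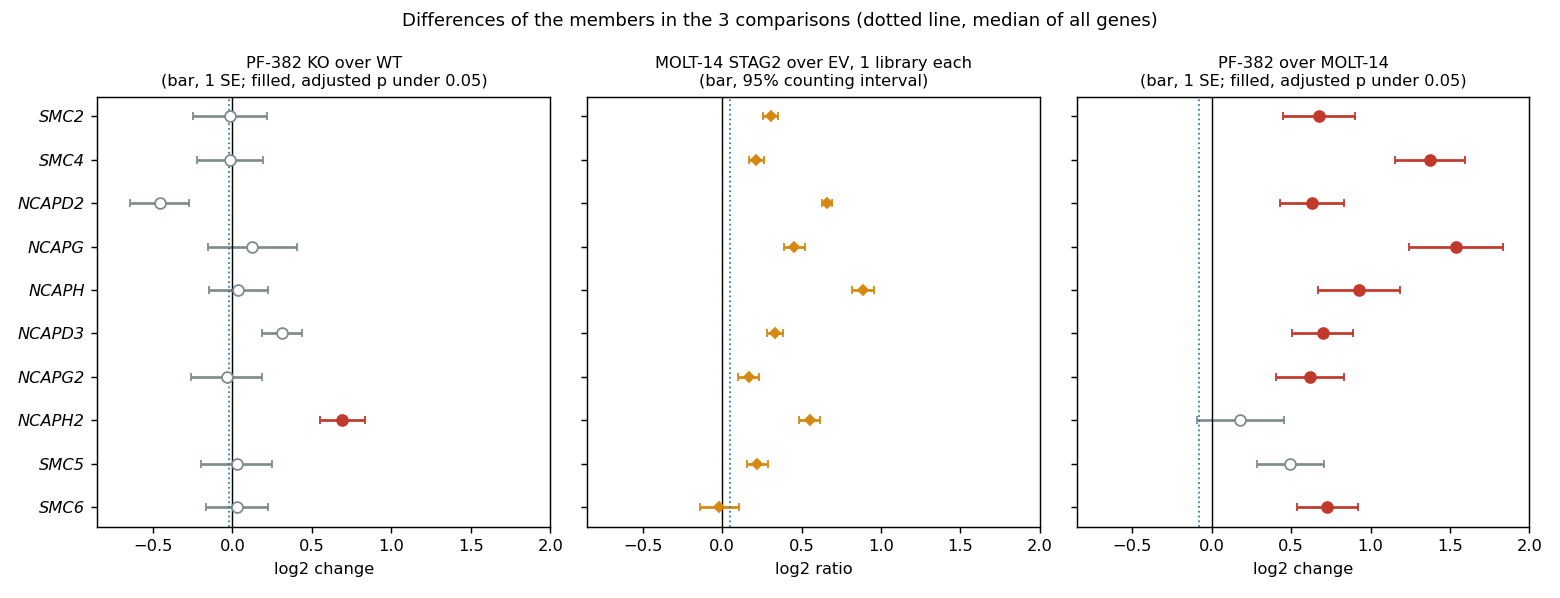
Log2 difference (x axis) of each member (y axis) for PF-382 knockout over wild type, MOLT-14 with STAG2 over empty vector, and PF-382 over MOLT-14, with the median of all genes as a dotted line. Bars are 1 SE in the outer panels and 95% counting intervals in the middle one. NCAPH2 is the 1 filled point in the knockout panel, and 8 members are filled in the panel of cell lines.

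The STAG2 effect was compared between the lines by testing (knockout minus wild type in PF-382) minus (empty vector minus STAG2 in MOLT-14), so that a positive value means higher with low STAG2 in PF-382 relative to MOLT-14. None of the 10 members passed at an edgeR adjusted p below 0.05, against 0.607% of 20100 genes (0.343% higher and 0.264% lower), and 3 passed without adjustment, against 21.2% of all genes. NCAPH2 came nearest, with a difference of 1.25 (SE 0.26, edgeR adjusted p = 0.0788). It was higher in knockout than wild-type PF-382 cells and, in MOLT-14, lower with empty vector than with STAG2. NCAPH (0.94, SE 0.33, edgeR adjusted p = 0.183) and NCAPD3 (0.65, SE 0.22, edgeR adjusted p = 0.167) followed. NCAPH2 passed without the first wild-type library (1.43, edgeR adjusted p = 0.0106), when 11.4% of all genes passed. Without the second, NCAPH2 (1.05, 0.0207), NCAPH (1.25, 0.0165) and NCAPG (1.15, 0.0313) passed, the second value in each pair being the edgeR adjusted p, when 10.4% of all genes passed. In this test the lone MOLT-14 libraries are assumed to vary like the PF-382 groups, and in the last 2 fits the lone wild-type library is too.

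Other genes of these pathways were read from lists of related genes. Of 7 further SMC5/6 subunits and partners (NSMCE1, NSMCE2, NSMCE3, NSMCE4A, EID3, SLF1 and SLF2), 0 passed in either direction in PF-382 knockout against wild type, 1 of them at an unadjusted p below 0.05, and the median log2 change was 0.18. Of all genes tested, 30.4% passed in that comparison (15.8% higher and 14.6% lower), and 44.4% at an unadjusted p below 0.05. Between the lines 4 of the 7 were higher in PF-382, against 22.4% of all genes tested. Of 11 condensin regulators and partners, 2 rose and 2 fell in knockout cells, against 15.8% and 14.6% of all genes tested. Of the 11, 6 were higher in PF-382 than in MOLT-14, against 22.4%. MCPH1, an inhibitor of condensin II, had 65.6, 56.4 and 65.0 CPM in knockout libraries, against 37.7 and 47.3 CPM in wild-type libraries (log2 change 0.52, SE 0.15, edgeR adjusted p = 0.0393). AKAP8, a chromatin anchor for condensin, had 38.3 to 40.2 CPM in knockout libraries, against 25.5 and 27.1 CPM in wild-type libraries (0.56, SE 0.11, edgeR adjusted p = 0.0146). PLK1, a mitotic kinase that phosphorylates condensin II, fell to 98.2, 101 and 88.2 CPM in knockout libraries, against 136 and 190 CPM in wild-type libraries (-0.79, SE 0.17, edgeR adjusted p = 0.0165). All 3 had groups that did not overlap, as did 60.0% of all genes tested. They were named for their adjusted p in these same libraries, so the lack of overlap adds no support. The other regulator that fell was the chromosome surface protein gene MKI67, named here after its value was seen.

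Of the 5 cohesin ring genes, STAG1, the paralogue of STAG2, rose in knockout cells (log2 change 1.36, SE 0.11, edgeR adjusted p = 0.00222), and RAD21, the cohesin kleisin, fell (-0.88, SE 0.13, edgeR adjusted p = 0.00628), as did STAG2. SMCHD1 and RAD50, other SMC-related ATPases, did not pass. Beside the members' median of 0.03, 2 lists of cell cycle genes had larger median changes between knockout and wild type. Of 14 S phase genes, 10 rose and 0 fell, with a median log2 change of 0.85. Of 15 G2 and mitosis genes 0 rose and 2 fell, KIF20A and AURKA, with a median of -0.33. The shares of all genes tested were 15.8% higher and 14.6% lower. The 2 lists were also set beside the members in the other comparisons. From the first to the second wild-type library the median log2 difference was 0.60 in the members, 0.74 in G2 and mitosis genes, 0.71 in condensin regulators, 0.18 in S phase genes, 0.05 in the further SMC5/6 genes and 0.03 in all genes. Between the lines, 13 of 15 G2 and mitosis genes were higher in PF-382 (median 1.66). Of 14 S phase genes, 1 was higher and 1 lower (median -0.26), and the median of the members was 0.69. Of all genes tested, 22.4% were higher and 25.2% lower. In MOLT-14 the medians were 0.32 in the members, 0.61 in G2 and mitosis genes, 0.37 in S phase genes and 0.05 in all genes. The medians of the lists were not tested. The part of cell cycle composition in the members' values was not tested.

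**Figure D4:**
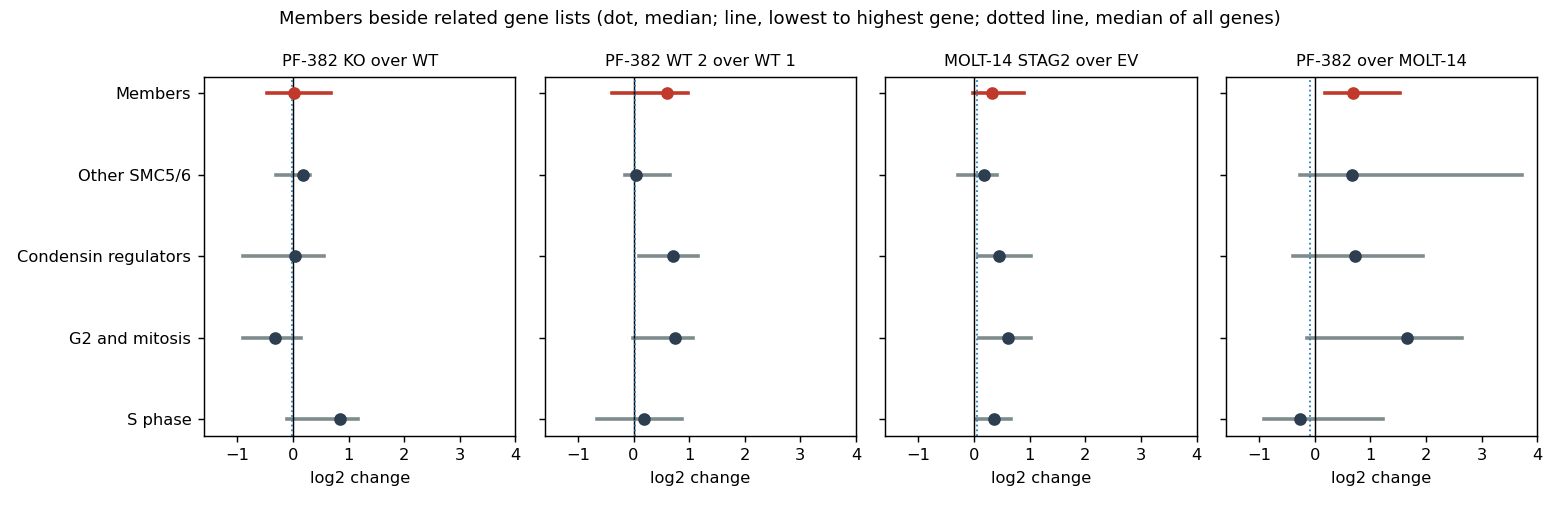
Median log2 change (dot, x axis) and the range from lowest to highest gene (line) for the members and 4 related lists (y axis) in PF-382 knockout over wild type, wild-type library 2 over 1, MOLT-14 with STAG2 over empty vector, and PF-382 over MOLT-14. The members' median is 0.60 between the wild-type libraries, beside 0.74 in G2 and mitosis genes, but 0.03 for knockout over wild type.

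The genes whose profile over the 7 libraries was most like that of each group of members were found by the root mean square difference of centred log2 CPM among 9458 genes with at least 10 CPM on average. For SMC2 and SMC4 they were HACD3 (0.07), DEK (0.07) and CKAP2 (0.07), against 0.52 for the median gene. For NCAPD2, NCAPG and NCAPH they were KPNA2, CKAP2 and MELK (0.09 each), against 0.55. For NCAPD3, NCAPG2 and NCAPH2 they were ASF1B (0.04), ATP5IF1 (0.04) and NRF1 (0.05), against 0.39, and for SMC5 and SMC6 EIF2B2 (0.07) and COA6 (0.08), against 0.43. The mean profile averages unlike members, since NCAPH2 stood 0.25 and NCAPG2 0.22 from the mean of the condensin II subunits but NCAPD3 only 0.10. In condensin I, NCAPH stood 0.09 from its mean, and NCAPD2 and NCAPG 0.26 and 0.28.

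The deposited counts and FPKM together give the transcript length that each library's estimate implies, in bases, which moves when the mix of isoforms moves. NCAPD3 had implied lengths of 3752, 3660 and 3768 in knockout libraries, against 3326 and 3251 in wild-type libraries. The groups did not overlap, and the knockout mean was 13.3% longer, while 10.2% of 9221 genes were longer without overlap by at least 1.1-fold and 7.78% shorter. SMC6 had lengths of 3719, 3661 and 3518 in knockout libraries, against 3361 and 3418 in wild-type libraries, 7.17% longer. Among the other members, NCAPG2 (1.30%) was longer in knockout libraries without overlap, and NCAPH (-3.97%) and SMC2 (-1.03%) were shorter without overlap. The rest, up to NCAPG (5.36%), overlapped. Of the members only NCAPD3 reached 1.1-fold. The share of all genes with smaller shifts and no overlap was not counted, so those of the other members have no background. These lengths are estimates from the authors' isoform fit and were not tested.

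Several members share exons with a gene on the opposite strand, and the strand setting of the counting is not given in the sources used here. SMC4 shares 1561 exonic bases with TRIM59 and 607 with IFT80, NCAPG 1631 with LCORL, NCAPD2 486 with MRPL51, NCAPD3 465 with JAM3 and fewer with other genes, and SMC6 107 with GEN1. NCAPH2, NCAPH, NCAPG2, SMC2 and SMC5 share no exonic bases with another gene in GENCODE 29. All 10 members had whole-number counts in every library, so that none of their estimates was fractional.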

How the data were processed

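The 7 libraries were total RNA sequencing of PF-382 and MOLT-14 cells, 1 deposited file each, processed with STAR and RSEM on GRCh38 per the submitters' processing notes, which give no versions. The authors deposited expected counts per gene (estimated reads, not normalised). They also deposited TPM, scaled to a fixed sum per library, and FPKM, scaled by length and depth. The expected counts were rounded, ERCC spike-ins left out, and counts tested with edgeR 4.0.16 under R 4.3.3, using its two-sided quasi-likelihood test after filterByExpr and TMM scaling, with Benjamini-Hochberg adjustment across the whole table and a threshold of 0.05. Standard errors are the log2 change over the square root of F. The 3 comparisons were knockout against wild type (5 libraries), PF-382 against MOLT-14 and the difference of STAG2 effects (7 libraries each). MOLT-14 groups were compared by the ratio of TMM-scaled CPM with prior count 2 and a fold of 1.5, with exact binomial intervals. TPM was used for levels within a library and, as log2(TPM + 1) in limma 3.58.1, as an alternative, as were DESeq2 1.42.0, other scalings and filters, and leaving out each library. FPKM gave only implied lengths and library sums. Depth was 32609485 to 93970572 counts per library. Positions came from GENCODE 29, matched by gene ID without version. Named genes were the members, STAG2, up to 3 called genes of each list with the smallest adjusted p, and the 3 most similar profiles per group; some items are not reported here. The members and lists were chosen with earlier results of these data known. The fits were tested on simulated counts with 100 genes changed 2-fold and 100 changed 4-fold. For knockout against wild type, 32% of the 2-fold and 100% of the 4-fold changes were recovered. Between the lines these shares were 13% and 96%, and for the difference of STAG2 effects 1% and 15%. Genes that passed in those counts numbered 137, 115 and 16, in that order, against 5311, 9577 and 122 in the libraries. The adjustment is stricter when fewer genes pass, and recovery at the numbers seen in the libraries was not tested. A member that did not pass is still not shown to be unchanged.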

Additional observations from a re-analysis of the deposited data

How the results depend on the processing

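No paired analysis was possible because the labels give the PF-382 libraries codes and no replicate numbers shared between groups, and the meaning of the codes is not stated. Members called in knockout against wild type numbered 1, when 30.4% of all genes passed. With upper-quartile scaling 2 were called (30.9% of all genes), as NCAPD2 was then called lower (log2 change -0.62, edgeR adjusted p = 0.0346). Without any 1 knockout library 0 were called (13.7% to 15.6% of all genes), and the number also moved without either wild-type library. NCAPH2 was called under the 7 other scalings, filters and tests that kept every library. With the letters of the library code (SA or SB) as a term, chosen after seeing the data, 0 members were called and SMC2 (0.10), SMC4 (0.10) and NCAPG2 (0.037) changed sign. SB holds knockout libraries alone, so no within-SB value exists. Log2 changes near 0 changed sign without a low-count filter (SMC2 0.061, SMC4 0.063, NCAPG2 0.042), with TPM (0.18, 0.14 and 0.13 for the same genes), with upper-quartile scaling (NCAPG -0.030, NCAPH -0.12, SMC5 -0.13, SMC6 -0.13) and with at least 1 CPM in 2 libraries (NCAPH -0.043, SMC5 -0.055, SMC6 -0.053). With 1 library left out they ranged from -0.34 to 0.45 in SMC2, -0.28 to 0.36 in SMC4, -0.27 to 0.72 in NCAPG, -0.36 to 0.43 in NCAPG2, -0.22 to 0.39 in NCAPH, -0.26 to 0.42 in SMC5 and -0.13 to 0.18 in SMC6. Upper-quartile scaling moved the median of all genes to -0.18 and the share of calls that were higher from 52.0% to 33.8%, and TPM moved that share to 62.0%. Between the lines 8 members were called, but 5 with upper-quartile scaling, 5 with the cell line as the only term, 3 when the knockout libraries were also dropped, 1 with TPM, and 1 to 9 with 1 library left out. With TPM the log2 differences were -0.37 in SMC2, -0.42 in NCAPD2, -0.31 in NCAPD3, -0.41 in NCAPG2, -0.0044 in NCAPH, -0.63 in NCAPH2, -0.61 in SMC5 and -0.22 in SMC6, and 8.24% of called genes were higher, against 47.1%. NCAPH2 was -0.18 without the knockout libraries and -0.44 to 0.82 with 1 library left out. For the difference of STAG2 effects, 0 members passed with either scaling and 0 to 3 with 1 library left out. Upper-quartile scaling turned SMC4 (-0.021), NCAPD2 (-0.022), NCAPG2 (-0.090) and SMC6 (-0.21). With 1 library left out the range was -0.064 to 0.72 in SMC2, -0.093 to 0.54 in SMC4, -0.066 to 0.50 in NCAPD2, -0.22 to 0.56 in NCAPG2, -0.063 to 0.61 in SMC5 and -0.13 to 0.16 in SMC6. In MOLT-14 members past 1.5-fold numbered 2, but 1 by total counts and 0 with TPM. Of 11442 genes, 478 were higher and 373 lower, then 233 and 835, and 67 and 3436, in that order. The cause of these shifts was not tested. The lowest count of a member in any library was 1074, and the effect of the unequal depth of the groups was not tested.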
